A study of Mus musculus with 16 samples.

Results

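Thigh adipose tissue (tAT) is the fat of the mouse thigh, and its 4 RNA sequencing libraries are set here against the 12 libraries of all other fat in the study, pooled. The 12 are 4 of brown adipose tissue (BAT), 4 of epididymal white fat (eWAT) and 4 of inguinal white fat (iWAT), which makes 16 libraries in all. Every library came from male C57BL66/J mice made obese on a high fat diet, so all 4 depots share strain, sex and diet. The labels give neither the age of the animals nor whether each library of a depot is from its own mouse. The p-values therefore reflect the variation among these libraries alone, part or all of which could be technical. The library tAT 3 is shown apart throughout, because its skeletal muscle transcripts were few.

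Brown fat burns fuel for heat through the uncoupling protein UCP1, and white fat stores triglyceride, in visceral depots such as eWAT or under the skin as in iWAT. Fat keeps the expression of Hox and other patterning genes that marked its place in the embryo, and thigh fat lies against limb muscle. A gene of thigh fat can therefore lie between white and brown fat or outside both, and the comparison here asks which genes lay outside. A gene was called outside the white to brown range where tAT differed from BAT, from eWAT and from iWAT in the same direction, by limma on log2(FPKM + 1), with the largest of the 3 p-values adjusted by Benjamini-Hochberg over 14991 genes. FPKM is a fragment count scaled by transcript length and by how many fragments were mapped, and the depth behind it is unknown. Distances are given on the log2(FPKM + 1) scale from the tAT mean to the nearest of the other depot means, with the standard error (SE) of that difference.

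A marker of adipocytes was examined first, which all 4 depots expressed and which cannot tell their labels apart. Adipoq, which encodes adiponectin and marks adipocytes, stood at 2134, 2057, 2326 and 2053 FPKM in tAT 1 to 4, against a lowest value of 642, a median of 3542 and a highest value of 4006 in the 12 others. Each library held 12447 to 14286 genes at 1 FPKM or more. The median gene was higher in tAT than in BAT by 0.44, a shift of 0.02 after median-of-ratios scaling, while its differences from eWAT (-0.08) and iWAT (-0.11) were small. Differences from BAT stand beside that shift. Listed zeros occurred in 86 genes with a median of 10 FPKM or more, and a zero in such a gene can be a failed estimate.

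Set against the average of the other depots, 3806 genes were higher in tAT (25.4% of those tested) and 2774 were lower (18.5%). After median-of-ratios scaling 2744 were higher and 3551 lower, so the split between rises and falls followed the scaling. Only 395 of the higher and 107 of the lower genes differed by 1 or more on the log2 scale. In some of these genes tAT lay between the depots. The tAT mean was inside the range of the other 3 means in 1117 of the higher genes (29.3%). Of the lower genes 1867 (67.3%) had it inside. That share was below the one over all genes for the higher genes, and close to it for the lower. Among all tested genes 66.3% had a tAT mean inside that range. Ucp1, at 114, 152, 461 and 354 FPKM in tAT 1 to 4, is such a gene, with values of 0.0231 to 5172 FPKM in the 12 others. When all 12 others were fitted as a single group, so that the differences between their depots counted as spread, 560 genes were higher and 128 lower.

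Outside the range, 44 genes were called above (0.294%) and 21 below (0.14%). Among the 44 were 10 that rest on zeros listed in BAT and are described apart, which leaves 34. With the genes listed at 0 taken out before the fit, 29 were called above and 19 below. The distances of the 34 ran from 0.48 to 2.53 with a median of 0.78, and those of the 21 below had a median of -0.73. All 4 tAT libraries lay beyond all 12 others in 43 of the 44 and in 21 of the 21. The exception was St3gal6, a sialyltransferase gene, at 17.1 FPKM in tAT 3 against a highest value of 17.4 in the 12 others.

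These counts moved when 1 library was left out. Without tAT 3 the same test called 510 genes above (3.4%) and 170 below (1.13%), which included all 44 and all 21. The 510 held 51 genes of the skeletal muscle lists given below. Because tAT 3 was set apart for its low muscle transcripts, the counts without it are a description only. Without tAT 4 the test called 10 above and 5 below, without tAT 1 it called 22 and 11, and without tAT 2 it called 26 and 13. Leaving out BAT 2 gave 25 and 12, iWAT 2 gave 21 and 12, and iWAT 4 gave 16 and 11, while the count above was 28 without BAT 3 and 29 without BAT 4. The genes described first below were called in each of the 16 fits that left out 1 library. The filter on low values was not applied again in those fits.

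Vat1l (mm10 chromosome 8, 114205612 to 114374071), a relative of the vesicle amine transport gene Vat1, stood at 10.8, 8.17, 11.9 and 12.4 FPKM in tAT 1 to 4. The 12 others ran from 0.315 to 5.57 FPKM with a median of 3.52. The groups did not overlap, tAT 3 was among the highest thigh libraries, and the distance was 1.05 (SE 0.14, adjusted p = 0.00413). Dkk2 (chromosome 3, 132085292 to 132180304), which encodes a secreted modulator of Wnt signalling, was low everywhere. It had 1.92, 1.70, 1.45 and 1.54 FPKM in tAT, against 0.0517 to 0.879 FPKM with a median of 0.173 in the others (distance 0.62, SE 0.09, adjusted p = 0.00886). Its call was lost with a pseudocount of 0.1 (adjusted p = 0.112).

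Ppm1j (chromosome 3, 104781056 to 104786018), which encodes a protein phosphatase of the PP2C family, stood at 8.59, 8.15, 2.98 and 5.17 FPKM in tAT and at 0.563 to 1.76 FPKM, median 0.890, in the others. BC023105, a gene with no name beyond its clone, stood at 7.02, 6.80, 2.15 and 5.01 FPKM in tAT and at 0.131 to 0.959 FPKM, median 0.507, in the others. In both genes tAT 3 was the lowest thigh library but still lay above all 12 others. Their distances were 1.57 for Ppm1j (SE 0.25, adjusted p = 0.0128) and 1.76 for BC023105 (SE 0.25, adjusted p = 0.00531). BC023105 and Dkk2, like Hoxa6 and Cd46, were under 1 FPKM in all 12 others and entered the test only through tAT, where they were high, so their calls lend no support to a list or count. The fits without a tAT library kept them only because the filter had been set with all 16 libraries.

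**Figure D1:**
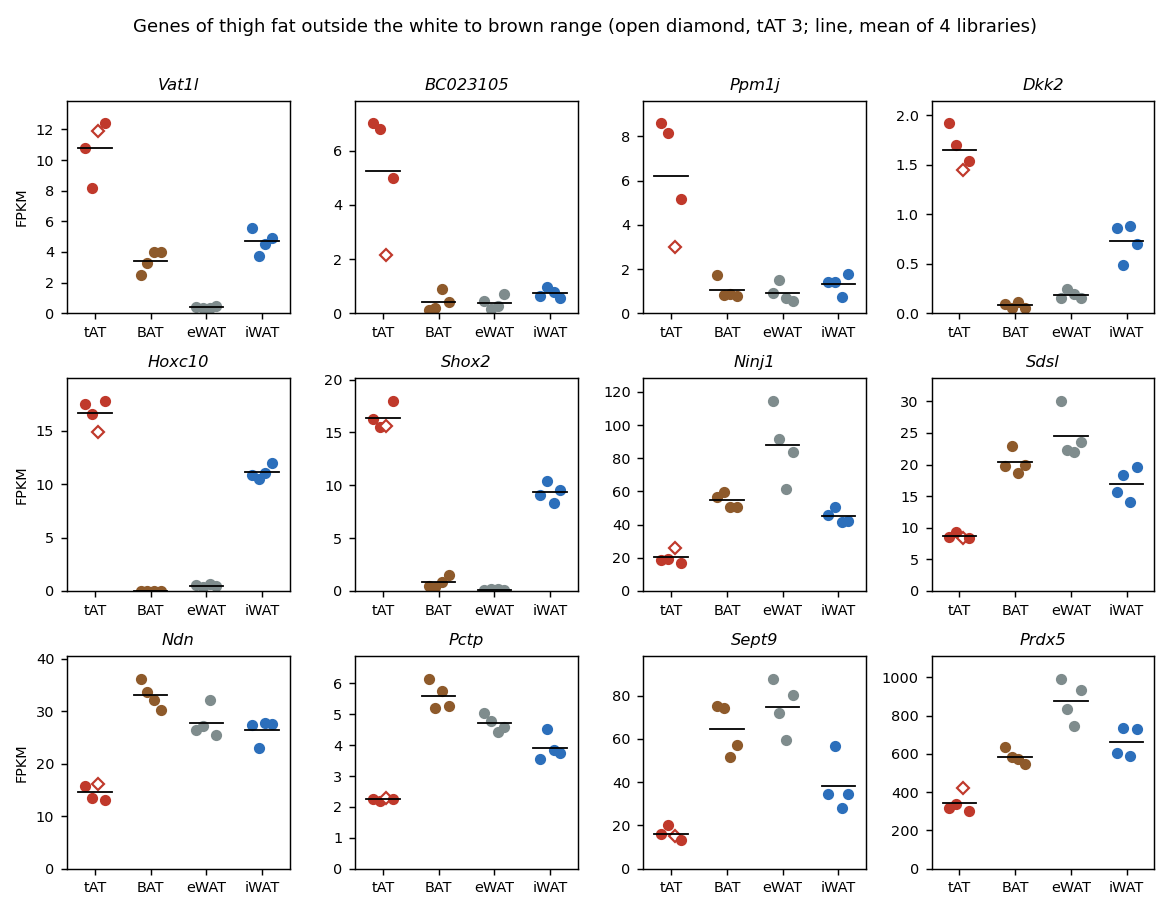
Each panel plots FPKM on a linear axis from 0 for 1 gene, with 1 point per library, the mean of each depot as a line and tAT 3 as an open diamond. Vat1l, BC023105, Ppm1j, Dkk2, Hoxc10 and Shox2 lie above all 12 other libraries in tAT, and Ninj1, Sdsl, Ndn, Pctp, Sept9 and Prdx5 lie below them.

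Some genes of limb and body position were among the calls. Of the 12 tested members of a limb and position list, 2 were called above the range, Shox2 and Hoxc10. The posterior Hox list had 1 of 5, Hoxc10 again, and the anterior Hox list had 1 of 18, Hoxa6. No member of these lists was called below. Of all tested genes 0.294% were called above and 0.14% below. Against the average of the other depots, 7 of the 12 limb genes and 4 of the 5 posterior Hox genes were higher. Of the 18 anterior Hox genes 5 were higher and 5 lower. The lower count was 1 without tAT 4, 2 without tAT 1 or tAT 2, and 6 without tAT 3. Of all genes 25.4% were higher and 18.5% lower. After median-of-ratios scaling 5 of the limb genes were higher and Hoxa6 was no longer called. The median differences of these lists from that average were 0.26, 2.22 and -0.06, beside 0.06 over all tested genes.

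Hoxc10 (chromosome 15, 102966796 to 102971893), a homeobox gene of the lumbar and hindlimb level, stood at 17.5, 16.5, 14.8 and 17.8 FPKM in tAT. It was at 10.5 to 12 FPKM in iWAT, at 0.336 to 0.631 FPKM in eWAT and listed at 0 in all 4 BAT libraries. The distance of tAT from iWAT was 0.54 (SE 0.08, adjusted p = 0.0109), and the call was lost without tAT 4 (adjusted p = 0.0565) and with a pseudocount of 0.1 (adjusted p = 0.165). Shox2 (chromosome 3, 66971727 to 66981771), a homeobox gene needed for the upper limb bones, stood at 16.3, 15.5, 15.7 and 17.97 FPKM in tAT, against 8.30 to 10.45 FPKM in iWAT. It reached at most 1.52 FPKM in BAT and 0.213 FPKM in eWAT. Its distance was 0.75 (SE 0.14, adjusted p = 0.0338), and tAT 3 lay among the other thigh libraries. The Shox2 call was less firm: the adjusted p ran from 0.056 to 0.139 without any 1 of tAT 1, 2 and 4, BAT 3 and the 4 iWAT libraries, and was 0.43 with a pseudocount of 0.1. Both genes kept their calls after median-of-ratios scaling (adjusted p = 0.00335 for Hoxc10 and 0.0323 for Shox2).

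Hoxa6 (chromosome 6, 52206288 to 52208722) was low, at 2.69, 2.08, 1.23 and 2.03 FPKM in tAT and 0.333 to 0.852 FPKM in the others. It entered the test only through tAT, and its call is no support for the anterior Hox list. Its distance was 0.87 (SE 0.14, adjusted p = 0.0132), with an adjusted p of 0.0593 without tAT 4 and 0.0538 after median-of-ratios scaling. Other posterior Hox genes overlapped between thigh and inguinal fat. Hoxa10 stood at 11.9, 10.3, 14.0 and 10.7 FPKM in tAT and 8.95 to 12.1 FPKM in iWAT, and Hoxc9 at 5.69, 4.35, 7.27 and 4.75 FPKM in tAT and 4.73 to 6.65 FPKM in iWAT. Pitx1, the homeobox gene that gives the hindlimb its identity, reached too few libraries at 1 FPKM to be tested. It was nonetheless at 0.599, 0.634, 0.842 and 0.630 FPKM in tAT and at most 0.212 FPKM in the 12 others. Its hindlimb partner Tbx4 was at 0.0468 to 0.244 FPKM in tAT and at most 0.108 FPKM elsewhere, so the groups overlapped.

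Tbx15, a T-box gene of subcutaneous and brown fat and of fast muscle fibres, showed how tAT 3 bears on such a list. It stood at 21.0, 20.5 and 16.3 FPKM in tAT 1, 2 and 4 but at 5.92 FPKM in tAT 3, inside the range of the others (0 to 7.15 FPKM). Its distance was 1.15 with all 4 libraries (adjusted p = 0.166) and 1.53 without tAT 3, given with no test.

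Other genes above the range belong to several functions. Cspg4 (chromosome 9, 56865033 to 56899870), the NG2 proteoglycan of pericytes, stood at 17.0, 15.7, 18.8 and 18.03 FPKM in tAT, against 4.28 to 12.5 FPKM in the others. It was the single member called of 9 tested mural cell genes, where 0.294% of all genes were called above. Its distance of 0.62 (SE 0.11, adjusted p = 0.0146) was from BAT, and fell to 0.12 after median-of-ratios scaling (adjusted p = 1). The call was also lost without tAT 4 (adjusted p = 0.0593). Tmem45b, a membrane protein gene, was abundant, at 541, 584, 702 and 629 FPKM in tAT and 256 to 448 FPKM in the others. Its distance was 0.65 (SE 0.11, adjusted p = 0.0146), and the adjusted p was 0.0593 without tAT 4 and 0.0525 without iWAT 4. Ctcfl, the germline relative of the insulator gene Ctcf, stood at 6.25, 6.73, 5.36 and 6.69 FPKM in tAT and 1.17 to 4.06 FPKM in the others (distance 1.00, SE 0.16, adjusted p = 0.0128, and 0.0593 without tAT 4). The Ctcflos locus overlaps it on the other strand and was also called, and without stranded counting reads of the pair cannot be told apart.

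Speg, a kinase gene of striated muscle, was called above with 22.7, 17.9, 7.61 and 14.2 FPKM in tAT and 2.61 to 6.05 FPKM in the others (distance 1.38, SE 0.23, adjusted p = 0.0146). Pgm2, a phosphoglucomutase gene that links glycogen to glycolysis, had 210, 203, 128 and 176 FPKM in tAT and 80.5 to 121 FPKM in the others (0.61, SE 0.12, adjusted p = 0.0432). In both, tAT 3 was the lowest thigh library, as it was the nearest to the others in 21 of the 34 genes above the range, and was farthest out in 3. The summed level of muscle transcripts, given below by library, was lowest in the same thigh library, and its part in these calls was not tested. The Speg call was lost without tAT 2 (adjusted p = 0.053), tAT 4 (0.0593) or BAT 2 (0.0544), and after scaling (0.109). Pgm2 was lost in 14 of the 16 fits without 1 library, all but those without tAT 3 and eWAT 3 (adjusted p = 0.0553 to 0.192), and after scaling (adjusted p = 1). The 4 entries RP24-472K15.2, Gm37282, RP23-447L9.3 and RP24-155C13.8 had identical values of 32.8, 39.4, 18.1 and 25.5 FPKM in tAT and at most 6.49 FPKM in the others, and are 1 measurement and not 4.

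The 10 calls that rest on zeros were 7 mitochondrially encoded genes, such as mt-Cytb and mt-Co2, and 3 entries with model names (Gm10925, Gm28437 and Gm28661). All 10 were listed at 0 in every BAT library. Of the 13 protein genes of the mitochondrial genome, 8 were listed at 0 in all 4 BAT libraries, and in the other 5 every tAT library was below every BAT library. In 4 of these 5 tAT also lay above every white library. For mt-Nd1, a complex I subunit, tAT held 7868 to 11729 FPKM, BAT 30849 to 39317 FPKM and the white depots 4146 to 5820 FPKM. Where BAT had values, then, these genes lay inside the white to brown range.

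Below the range, the firmest calls were Ninj1, Sdsl, Ndn and Pctp. Ninj1 (chromosome 13, 49187485 to 49196244), whose product ninjurin 1 acts in adhesion and in the rupture of dying cells, stood at 18.7, 19.1, 26.0 and 17.0 FPKM in tAT. The 12 others ran from 41.5 to 114.5 FPKM with a median of 53.7, and the distance was -1.13 (SE 0.16, adjusted p = 0.00529). Sdsl (chromosome 5, 120458186 to 120472810), a serine dehydratase relative, stood at 8.55, 9.34, 8.34 and 8.43 FPKM in tAT and 14.0 to 30.05 FPKM, median 19.9, in the others (-0.88, SE 0.11, adjusted p = 0.00395). Ndn (chromosome 7, 62346569 to 62350262), the imprinted gene of necdin, a growth suppressor that restrains fat cell differentiation, stood at 15.8, 13.4, 16.1 and 13.1 FPKM in tAT and 22.9 to 36.2 FPKM, median 27.6, in the others (-0.81, SE 0.10, adjusted p = 0.00268). Pctp, a phosphatidylcholine transfer protein gene, was the tightest, with 2.26, 2.19, 2.30 and 2.25 FPKM in tAT and 3.54 to 6.145 FPKM, median 4.69, in the others (-0.59, SE 0.08, adjusted p = 0.00429). These 4 kept their calls after scaling and in every fit that left out 1 library.

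Other calls below were Sept9, a septin of the cytoskeleton, at 16.1, 20.4, 14.9 and 13.5 FPKM in tAT and 28.1 to 87.8 FPKM in the others (-1.16, SE 0.20, adjusted p = 0.0146). Prdx5, a peroxiredoxin that removes peroxides, stood at 318.5, 337, 422 and 303 FPKM in tAT and 545.5 to 991.5 FPKM in the others (-0.77, SE 0.12, adjusted p = 0.0128). Both calls, and that of Grtp1, had an adjusted p of 0.0593 without tAT 4. Dock8, an exchange factor best known in leukocytes, stood at 8.28, 9.36, 5.43 and 6.51 FPKM in tAT and 11.5 to 25.0 FPKM in the others (-0.99, SE 0.17, adjusted p = 0.0148). It was lost without tAT 4, BAT 2, iWAT 2 or iWAT 4 (adjusted p = 0.0616 to 0.0686). Apoc1, an apolipoprotein gene, had 116, 116, 237 and 148 FPKM in tAT and 270 to 942 FPKM in the others. Its distance was -0.94 (SE 0.20, adjusted p = 0.0481), and the call was lost in 14 of the 16 fits without 1 library (adjusted p = 0.0534 to 0.216), all but those without tAT 3 and eWAT 3.

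Also among the 21, and picked out after the calls were seen, were Iscu, the scaffold for iron-sulphur clusters, Mrpl20 of the mitochondrial ribosome, Pet100, an assembly factor of cytochrome oxidase, and Mtch1, a mitochondrial carrier homologue. Iscu stood at 130, 130, 169.7 and 130 FPKM in tAT and 195 to 304 FPKM in the others (-0.58, SE 0.11, adjusted p = 0.0251). In Iscu, Mrpl20 and Pet100 the outlying thigh library was tAT 3, which lay nearest the others, as it did in 14 of the 21 genes. After median-of-ratios scaling the adjusted p-values were 0.115 for Iscu, 0.107 for Mrpl20, 0.149 for Pet100 and 0.0609 for Mtch1, so none of these calls was kept. Leaving out 1 library ended the call in 6 of 16 fits for Iscu, 7 for Mrpl20, 11 for Pet100 and 1 for Mtch1, with adjusted p of up to 0.123, 0.137, 0.191 and 0.0503. Each of the 4 calls was lost without tAT 4, and all but that of Mtch1 without tAT 1 or tAT 2.

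Per3 (chromosome 4, 151003652 to 151044665), a period gene whose product represses the CLOCK and BMAL1 activators, was called above the range at 30.5, 23.3, 25.1 and 30.7 FPKM in tAT and 5.10 to 16.9 FPKM, median 13.6, in the others. Its distance from BAT was 0.78 (SE 0.16, adjusted p = 0.0411). After median-of-ratios scaling it was 0.27 (adjusted p = 0.784), and the call was lost in 12 of the 16 fits without 1 library (adjusted p = 0.0521 to 0.184), all but those without tAT 3, eWAT 2, eWAT 3 and eWAT 4. Other clock genes were chosen after their values were seen, and none passed. In Dbp, Nr1d1 and Bhlhe41 all 4 tAT libraries lay above the 12, and in Tef, Nr1d2, Per2 and Arntl they overlapped them. Of all tested genes 1.95% had all 4 above, but genes picked by their values cannot be held against that share. Dbp, an activator that binds D-box elements, stood at 97.7, 63.5, 107 and 88.5 FPKM in tAT and 22.1 to 57.3 FPKM in the others (0.83, adjusted p = 0.16). Nr1d1, the repressor REV-ERB alpha, stood at 129, 93.3, 154 and 103 FPKM in tAT and 41.7 to 91.8 FPKM in the others (0.61, adjusted p = 0.269). Bhlhe41 stood at 9.64, 7.36, 8.54 and 10.1 FPKM in tAT and 2.19 to 6.59 FPKM in the others (0.72, adjusted p = 0.0692). Arntl, which encodes BMAL1, stood at 1.36, 1.30, 0.939 and 0.752 FPKM in tAT, overlapping BAT (0.462 to 0.885 FPKM) and below every white library (1.71 to 3.04 FPKM). The labels used here do not name the hour of tissue collection, and its part in these values was not tested.

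The promoter of Per3 is shown because D-box elements are the sites through which Dbp and its relatives act. It covers the 250 bases before the RefSeq start of the gene on GRCm38.p6 (chr4:151044666-151044915, minus strand), with matches to TTATGTAA in capitals. There were 2 matches, and 0.819% of 32851 promoter windows of the same length held this word or its reverse complement.
Per3: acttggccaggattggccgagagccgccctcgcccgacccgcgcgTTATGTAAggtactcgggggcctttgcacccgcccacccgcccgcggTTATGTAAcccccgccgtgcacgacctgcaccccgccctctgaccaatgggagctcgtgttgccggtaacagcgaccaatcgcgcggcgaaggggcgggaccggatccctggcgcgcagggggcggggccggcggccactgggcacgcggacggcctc

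**Figure D2:**
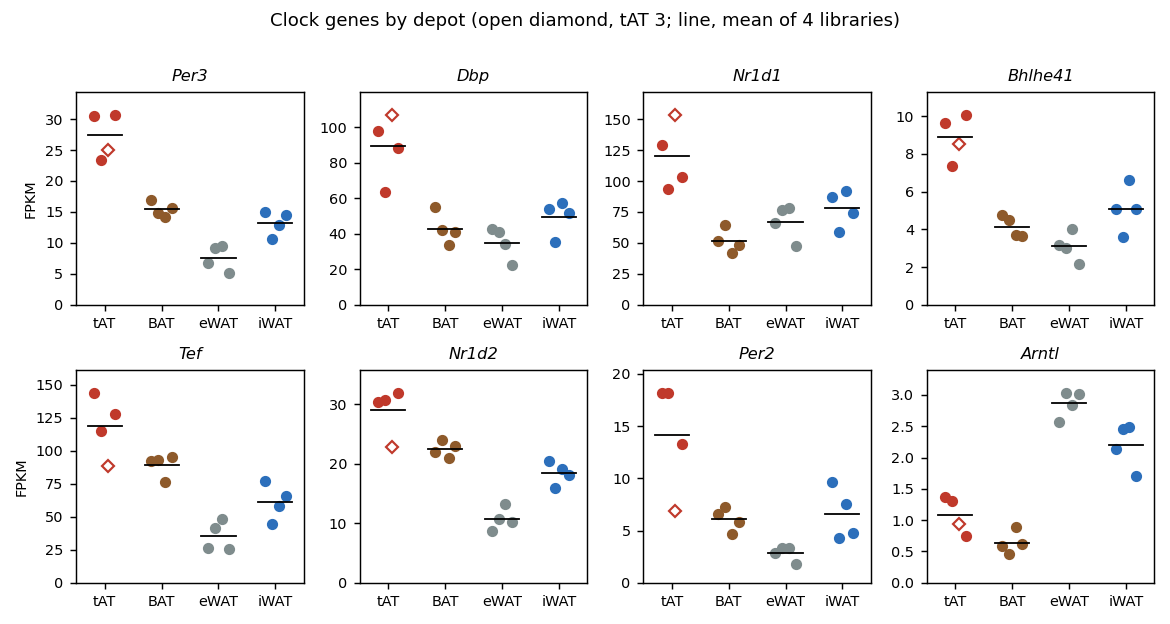
Each panel plots FPKM from 0 on a linear axis for 1 clock gene, with 1 point per library, a line at the mean of each depot and tAT 3 as an open diamond. In tAT the 4 libraries of Per3, Dbp, Nr1d1 and Bhlhe41 lie above the other 12, while those of Tef, Nr1d2, Per2 and Arntl overlap them.

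Skeletal muscle transcripts set apart tAT 1, 2 and 4. The genes of 6 muscle lists summed to 38609, 39084 and 24708 FPKM in tAT 1, 2 and 4 and to 681 FPKM in tAT 3. In the 12 others they ran from 366 to 5029 FPKM with a median of 491, the highest being BAT 3 and BAT 4. In bulk tissue, fewer cells of a type and less RNA per cell cannot be told apart. Of the 74 tested muscle genes, 63 had tAT 1, 2 and 4 above all 12 others, where 8.48% of all tested genes did. The count of 63 is a description only, because tAT 3 was set apart for its low muscle transcripts. All 4 libraries were above in 2 of the 74, where 1.95% of all tested genes had this. By limma none of the 74 was called outside the range with tAT 3 in the fit, though 54 had an unadjusted p under 0.05 above it (848 of all 14991 genes did).

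Myh4, the fastest myosin heavy chain, stood at 2777, 2862, 7.497 and 1701 FPKM in tAT 1 to 4, against 0.287 to 190.6 FPKM, median 0.935, in the others. Ckm, the creatine kinase of muscle, stood at 3128, 3218, 15.2 and 2031 FPKM in tAT and 0.448 to 316 FPKM, median 3.36, in the others. Atp2a1, the calcium pump of fast fibres, stood at 3059, 2971, 8.57 and 1767 FPKM in tAT and 0.233 to 281.5 FPKM, median 2.88, in the others. In each gene tAT 3 fell inside the spread of the other depots and below BAT 3 and BAT 4. With all 4 libraries the distances did not pass: 5.28 for Myh4 (adjusted p = 0.478), 5.06 for Ckm (0.529) and 4.87 for Atp2a1 (0.592). Without tAT 3 they were 7.31, 6.91 and 6.88, given with no test because that library was set apart for its low muscle transcripts.

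Fast and slow fibre genes could not be set against each other by counts of genes, since few slow ones were tested. By summed level, the fast sarcomere list stood at 20668, 20867, 275 and 13192 FPKM in tAT 1 to 4 and 57.0 to 2609 FPKM in the others. The slow sarcomere list stood at 89.5, 93.9, 56.4 and 65.6 FPKM in tAT 1 to 4, within the 29.3 to 123 FPKM of the others. Of 12 fast sarcomere genes 10 had tAT 1, 2 and 4 above all others, all but Myh1 and Myh2, and of the 10 slow sarcomere genes 3 were tested and 0 did. The counts were 17 of 18 for sarcomere genes shared by fibre types, 18 of 19 for calcium release, 12 of 15 for muscle fuel use and 6 of 7 for regulators and the synapse. They too describe a split of the thigh libraries that was made on muscle transcripts. Gys1, the glycogen synthase of muscle and fat, had all 4 tAT libraries above and stood at 78.8, 70.4, 78.7 and 76.8 FPKM in tAT and 29.0 to 70.1 FPKM in the others. Its distance of 0.23 (adjusted p = 0.62) turned to -0.30 after median-of-ratios scaling.

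Genes of cartilage, bone and tendon were not prominent in tAT. The 13 cartilage and bone genes summed to 5.20 to 6.38 FPKM in tAT and 3.24 to 9.35 FPKM in the others, and the 11 tendon genes to 4.83 to 7.58 FPKM in tAT and 2.07 to 49.9 FPKM in the others. Only 2 of the cartilage and bone genes and 4 of the tendon genes were tested, and in none of these did all 4 thigh libraries lie outside the 12. Over all tested genes 1.95% had all 4 above and 0.7% had all 4 below, so this says little for so few genes.

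The promoters of Ckm and Myh4 are shown because the E-box word CAGCTG is a site of the muscle regulators of the MyoD family. Both cover 250 bases before the RefSeq start on GRCm38.p6, Ckm at chr7:19410844-19411093 and Myh4 at chr11:67237562-67237811, both on the plus strand, with CAGCTG in capitals. The word occurs in 13.0% of 32851 promoter windows of this length, and in 21 of the 42 windows (50.0%) that could be matched to the 63 muscle genes with tAT 1, 2 and 4 above. The 63 come from muscle lists and from a split made on muscle transcripts, so the 50.0% is a description only. A match describes the letters only.
Ckm: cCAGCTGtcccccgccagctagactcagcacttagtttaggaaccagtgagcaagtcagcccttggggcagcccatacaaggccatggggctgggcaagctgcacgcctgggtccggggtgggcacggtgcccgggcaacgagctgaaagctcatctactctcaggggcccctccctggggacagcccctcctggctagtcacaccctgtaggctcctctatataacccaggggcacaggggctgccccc
Myh4: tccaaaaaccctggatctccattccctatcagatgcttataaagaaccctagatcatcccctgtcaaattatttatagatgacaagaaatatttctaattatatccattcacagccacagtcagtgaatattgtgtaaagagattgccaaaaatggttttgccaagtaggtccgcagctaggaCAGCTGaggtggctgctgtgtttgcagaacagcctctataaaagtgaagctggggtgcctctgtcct

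**Figure D3:**
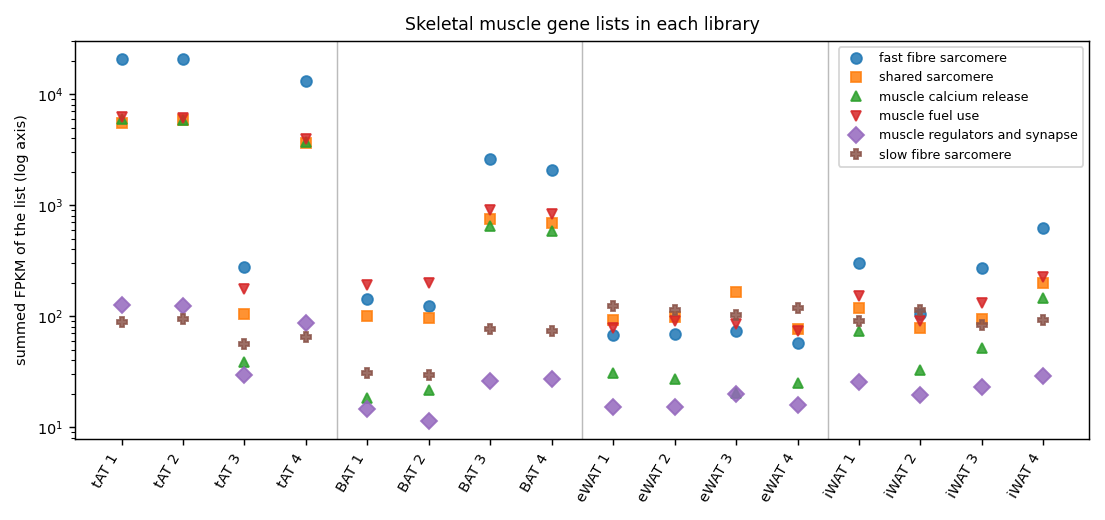
Points give the summed FPKM of each muscle list on a log axis for each of the 16 libraries. In tAT 1, 2 and 4 all lists but the slow sarcomere stand above every other library, while tAT 3 lies within the spread of the other depots or, for regulators and synapse, just above it (29.8 against at most 29.2).

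Counted by library, without a test, 293 genes (1.95%) had all 4 tAT libraries above the 12 others and 105 (0.7%) had all 4 below. For tAT 1, 2 and 4 alone these counts were 1271 (8.48%) and 477 (3.18%), and without tAT 2 they were 459 and 123. In 978 of the 1271, tAT 3 did not lie above the 12, and 61 of the 978 belonged to the muscle lists. It still lay above the median of the 12 in 549 of the 978 (56.1%). For the 372 genes below in tAT 1, 2 and 4 but not in tAT 3, it lay below that median in 233 (62.6%).

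**Figure D4:**
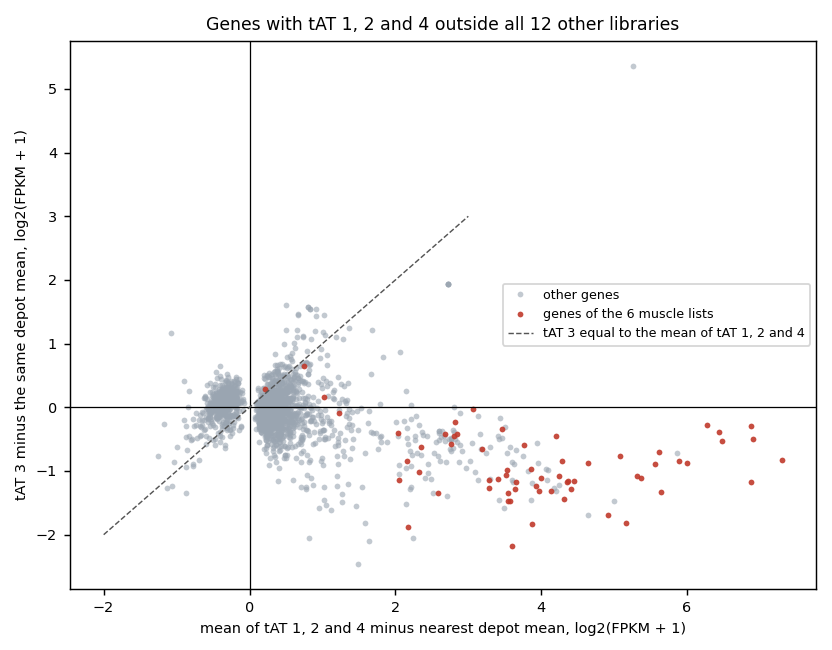
Each point is a gene whose tAT 1, 2 and 4 lay outside all 12 other libraries; the x axis is their mean minus the nearest depot mean and the y axis is tAT 3 minus the same mean, both on the log2(FPKM + 1) scale. Genes of the muscle lists run to the right and mostly below 0 for tAT 3, as Myh4 does (7.31 on x and -0.82 on y), and genes near the dashed line were about as far out in tAT 3. The point at the upper right is AC026385.1 (5.26 on x and 5.37 on y), which was not called.

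Transcript length varied between these sets of genes. The median longest transcript was 4789 bases for the 978 genes above and 1569 bases for the 372 below. It was 3732 bases for the 293 above in all 4, 1983 bases for the 105 below in all 4, and 2916 bases over all tested genes. Transcripts under 1500 bases made up 15.7% of the 293 and 39.0% of the 105, against 23.6% of all genes. These are descriptions of lists chosen by the values, and their part in the results was not tested.

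On its own tAT 3 lay above all 12 others in 1343 genes (8.96%) and below them in 385 (2.57%). It was above in 5 of 14 general adipocyte genes, namely Plin1, Cebpa, Lipe, Pnpla2 and Cfd. Pnpla2, the first lipase of triglyceride breakdown, stood at 1296, 1179, 2009 and 1534 FPKM in tAT 1 to 4 and 1023 to 1360 FPKM in the others. Cfd, which encodes the adipokine adipsin, stood at 5069, 3055, 7683 and 5241 FPKM in tAT and 501.8 to 6842 FPKM in the others. Of 11 immediate early and heat shock genes, tAT 3 was above all 12 others in 3 (Jun, Egr1 and Ier2), below them in 1 (Hsph1) and within their range in the rest. Egr1 stood at 6.54, 5.09, 42.5 and 2.66 FPKM in tAT and 1.57 to 21.7 FPKM in the others, and Ier2 at 7.86, 6.21, 31.8 and 5.91 FPKM in tAT and 7.04 to 17.9 FPKM in the others. None of these genes was called outside the range, and a single library gives no estimate of spread.

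Lists that define white and brown fat were examined next. By limma, 0 of the 48 genes of 4 lists (12 thermogenic genes that muscle hardly expresses, 12 that it shares, 10 white-selective and 14 general adipocyte genes) were called outside the range, and 0 had an unadjusted p under 0.05. Of all 14991 genes only 0.294% were called above and 0.14% below, so that count says little about these lists, and 848 above and 272 below had such an unadjusted p. Every one of the thermogenic genes had a tAT mean inside the depot means. So had 9 of the 10 white-selective and 10 of the 14 general adipocyte genes, beside 66.3% of all tested genes. The thermogenic genes that muscle hardly expresses had a median difference of -2.43 from BAT, 1.37 from eWAT and 0.96 from iWAT. White-selective genes ran the other way, at 4.33 from BAT, -1.05 from eWAT and -0.92 from iWAT. All 15 citric acid cycle genes and all 20 respiratory chain genes likewise had tAT means inside.

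Among other cell types, limma called 0 of the 64 genes for macrophages (18), endothelium (16), mesothelium (10) and extracellular matrix (20) outside the range, where 0.294% above and 0.14% below were called of all genes, and 0 had an unadjusted p under 0.05. Relative to the average of the other depots, where 25.4% of all genes were higher and 18.5% lower in tAT, all 10 mesothelial genes were lower, with median differences of -2.65 from eWAT, 0.00 from BAT and -0.02 from iWAT. Of the macrophage genes 12 were lower, with 8, 11, 5 and 4 without tAT 1, 2, 3 and 4 in turn, and 14 after median-of-ratios scaling. Their summed level was 283 to 522 FPKM in tAT and 47.0 to 3484 FPKM in the others. Of the endothelial genes 7 were higher, but 1, 2, 4 and 2 without tAT 1, 2, 3 and 4 in turn, and 2 after median-of-ratios scaling. Of 19 ribosomal protein genes 17 were lower than the average. This count was 12, 9, 19 and 10 without tAT 1, 2, 3 and 4 in turn, and 19 after median-of-ratios scaling. By limma 0 of the 19 were called below each depot, with 0 at an unadjusted p under 0.05.

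**Figure D5:**
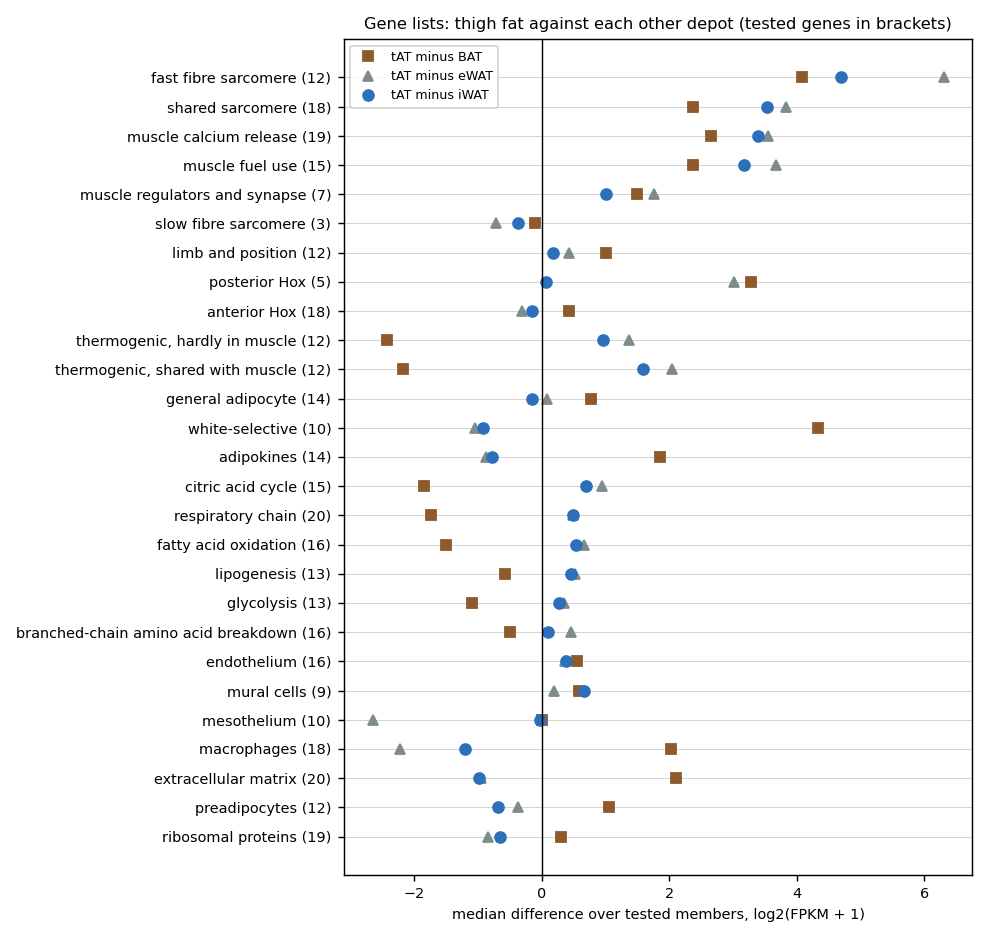
Points give, for each gene list, the median difference over its tested members between tAT and BAT (squares), eWAT (triangles) and iWAT (circles) on the log2(FPKM + 1) scale, with the number of genes in brackets. The fast sarcomere list lies above 0 against all 3 depots (4.08, 6.30 and 4.70), while thermogenic and white-selective lists lie on opposite sides of 0 against BAT and against the white depots.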

How the data were processed

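RNA was measured in 16 libraries, 4 per depot, grouped by their titles. Trizol was used on the frozen tissue and the TruSeq kit on 1 µg of its total RNA, per the labels' protocols. Per the submitters' processing notes, TopHat, TopHat2 2.0.9, Cufflinks 2.1.1 and the mm10 build were used; whether counting used strand is not stated there. The deposited values are FPKM, computed by the authors, with no counts, so depth per library is unknown and no counting interval can be given.

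From these, 1 entry per symbol was kept (46206 of 46386 entries), and the 14991 genes at 1 FPKM or more in at least 4 libraries were tested on log2(FPKM + 1), so fold changes of low genes are understated. limma 3.58.1 in R 4.3.3 fitted 1 mean per depot with trended, robust variances. The pooled contrast was tAT minus the average of the 3 other depot means, and the outside range test took the largest two-sided p of the 3 contrasts, adjusted by Benjamini-Hochberg over all tested genes at 0.05. The outside range test was tested on simulated data with independent normal noise and no outlying library. That simulation does not cover a library that stands apart as tAT 3 does. The members and gene lists were chosen with earlier results of these data known. Genes were named by fixed rules: the 12 farthest called above and 12 below, the 8 above and 8 below where tAT 3 differed from the other thigh libraries, and leading list members. Other calls, and Tbx15, Gys1, Hoxa10, Hoxc9, Pnpla2, Plin1, Cebpa, Lipe, Egr1, Ier2 and the clock genes besides Per3, were named after their values were seen. Some genes are not reported here by name and are left out of the counts over named genes, but remain in the fits and list counts. Alternatives were other pseudocounts, filters, scalings, weights and a replicate block, a 2-group fit, and leaving out libraries or genes listed at 0. Gene positions are from GENCODE vM21, promoters from RefSeq; python 3.11.15 was used.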

Additional observations from a re-analysis of the deposited data

Results flagged for a closer look

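In 64 genes examined, 1 of the 4 tAT libraries stood far from the other 3 in 12, by a gap, relative to the range of the 4, over Dixon's 95% critical value. In all 12 the library was tAT 3. All but Iscu, Mrpl20 and Pet100 had been named because tAT 3 stood apart in them, so the rate of about 1 in 20 that chance gives is no yardstick for this count, and it is a description only. It was far below the other thigh libraries in the muscle genes Actn3 (4.924 FPKM), Atp2a1 (8.571), Ckm (15.23), Myh4 (7.497), Pvalb (13.27), Tnnc2 (20.9), Tnni2 (16.66) and Tnnt3 (26.87). It was far above them in Iscu (169.7 FPKM), Mrpl20 (109.8), Pet100 (11.51) and Serhl (63.63). The muscle lists summed to 681 FPKM in tAT 3 and to 24708 to 39084 FPKM in the other thigh libraries, and their part in the values of the other genes was not tested.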

How the results depend on the processing

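Over the genes named, 1346 of 1727 values kept their direction and side of the threshold, 287 lost the call, 58 gained it and 36 turned sign. Pooled contrast: 2489 genes were higher after quantile normalization, 560 higher and 128 lower in the 2-group fit, 598 and 452 with tAT 3 as the single tAT library, and 458 and 369 without tAT 1, 2 and 4 and BAT 3 and 4. Outside the range, leaving out 1 library gave 10 to 510 genes above and 5 to 170 below. The counts were 26 above with a pseudocount of 0.1, 33 below after median-of-ratios scaling, 56 below after quantile normalization, and 670 and 244 with array weights, where tAT 3 had the lowest weight (0.212). With tAT 3 as the single tAT library they were 13 and 1, and without tAT 1, 2 and 4 and BAT 3 and 4 they were 10 and 0. Chosen after seeing the data, leaving out genes listed at 0 gave 29 above, and median-of-ratios scaling without tAT 3 gave 383 and 403. When 1 library was left out, all remaining tAT libraries lay beyond all remaining others in 294 to 1271 genes above and 106 to 477 below. With all 16 libraries, 262 genes were below after median-of-ratios scaling and 243 after quantile normalization. For tAT 3 alone these counts were 1343 and 385, without the muscle-rich libraries 1430 and 598, and for scaling without tAT 3 990 and 1092. The cause of these moves was not tested.

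Values that turned sign follow. After median-of-ratios scaling, Tef was at -0.14, Gys1 at -0.30, and the pooled differences of Adipoq and Lep at -0.05293 and -0.007652. Leaving out 1 library, the pooled difference of Lep ran from -0.08631 (without tAT 2) to 0.2407 (without tAT 3). Scaling without tAT 3 put Tef at -0.01602, Gys1 at -0.32 and Adipoq at -0.10. With tAT 3 as the single tAT library Tef was at -0.01043, Myh4 -0.82, Ckm -0.49, Tnnt3 -0.29, Atp2a1 -1.17, Tnni2 -0.53, Tnnc2 -0.39, Actn3 -0.27, Pvalb -0.87, Poln 0.01206, Cenpa 0.25, Gngt2 0.175, Serhl 0.16 and Lep -0.38. With BAT 3 and 4 left out too, Tef was at -0.07337, Myh4 -0.09404, Atp2a1 -0.76 and Actn3 -0.14, and the others were as before.

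No pairing of same-numbered libraries was detected: their deviations correlated at -0.274 to 0.23, and 1 of 16 libraries correlated best with its own number. These values cannot show whether such libraries came from the same mouse. With the replicate number as a block, 3801 genes were higher and 2794 lower, and 32 were above and 20 below the range, of which 28 and 16 were among the 44 and 21. Depth is unknown, and genes near 1 FPKM are the least certain.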
